A study of Mus musculus with 5 samples.

Results

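Keratins are the intermediate filament proteins of epithelial cells. A filament needs a type II keratin paired with a type I keratin, and simple epithelia, which are one cell layer thick, pair Krt8 (type II) chiefly with Krt18, Krt19 and Krt20 (type I). In the intestine Krt8, Krt18 and Krt19 run through the crypt and the surface, whereas Krt20 marks the differentiated cells near the lumen. Epcam, a cell surface glycoprotein that stabilises claudins, and Cdh1, the E-cadherin of adherens junctions, hold these cells together.

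The genes described are 8 of the 55471 in the files, chosen by symbol as a gauge of epithelial content and maturity: Krt7, Krt8, Krt18, Krt19, Krt20, Krt23, Epcam and Cdh1. RNA came from frozen colon pieces of C57BL/6 males aged 11 weeks, in which TNBS, a hapten that inflames the colon, had induced colitis 3 days earlier. The mice had received propyzamide, a herbicide (3 libraries), or vehicle (2 libraries), and every mouse had TNBS. Neither the dose nor the colon segment is given in the sources used here, and colon without TNBS was not analysed here. Nothing in the labels states that each sample came from its own animal, and the p-values here reflect sample-to-sample spread that may be technical.

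Libraries held 1882235 to 2706885 estimated counts in propyzamide and 1573700 and 2258237 in vehicle. Of these, 36.7% to 41.6% in propyzamide and 26.3% and 43.6% in vehicle fell on loci that resemble ribosomal RNA. Olfactory and vomeronasal receptor genes, most of which are used in the nose, had a count for 10.6%, 41.4% and 15.9% of 1972 genes in propyzamide and for 66.8% and 53.5% in vehicle, and this difference moved with the groups. For the members other than Krt23 the background estimated from these receptor genes was at most 3.32% of the count, so those levels stood well above it. The second index sequence was 1 for all propyzamide libraries and another for both vehicle libraries, so index and treatment cannot be told apart.

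The labelled tissue was checked against its markers. All 8 markers of colon epithelium had counts in every library, summing to 1801, 2578 and 1419 CPM (counts scaled to library size with TMM factors) in propyzamide and 1498 and 1382 CPM in vehicle. Markers of squamous epithelium, as found at the anus, summed to 28.2, 40.04 and 20.7 CPM in propyzamide and 25.6 and 11.9 CPM in vehicle. Mesothelium, the lining of the outer gut wall, also makes simple keratins, and its markers summed to 9.86, 114 and 65.8 CPM in propyzamide and 31.02 and 8.51 CPM in vehicle. Both lists lay far below Krt8, the most abundant member, but not below every member. In propyzamide replicate 2 both exceeded Krt7, at 29.8 CPM. In propyzamide replicate 3 the mesothelial sum exceeded Krt7, at 51.7 CPM. Both exceeded Krt23 in every library.

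Propyzamide was set against vehicle in 1 comparison, which asks whether the epithelial share of the tissue or its maturity differed. None of the 8 members changed past the threshold, an adjusted p under 0.05 over the 12024 genes tested (edgeR, quasi-likelihood, with Benjamini-Hochberg adjusted p-values). Krt20 came closest: it averaged 616 ± 172 CPM in propyzamide (SD, n = 3) and 196 ± 25.1 CPM in vehicle (SD, n = 2). Krt8 was also higher in each propyzamide library than in both vehicle libraries, by less. The other 6 members overlapped between the groups.

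All 8 members passed the filter on low counts, and 0 of 8 were called, against 1.90% of all genes tested (0.690% higher and 1.21% lower in propyzamide). That split depended on scaling: 83 genes were higher and 146 lower in propyzamide with TMM, 79 and 235 with the upper quartile, and 87 and 484 without scaling. At an unadjusted p under 0.05 edgeR had 1 of the 8, Krt20, against 18.2% of all genes, and DESeq2 called Krt20 alone, against 4.70% of all genes. The CPM of the groups did not overlap for 2 of the 8 members, both higher in propyzamide, while 37.5% of all genes did not overlap, 16.7% being higher and 20.8% lower in propyzamide. The members' shares are thus read against a background in which non-overlap is common. The median log2 fold change was -0.05 over the 8 members, 3 positive and 5 negative, and -0.02 over all genes.

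**Figure D1:**
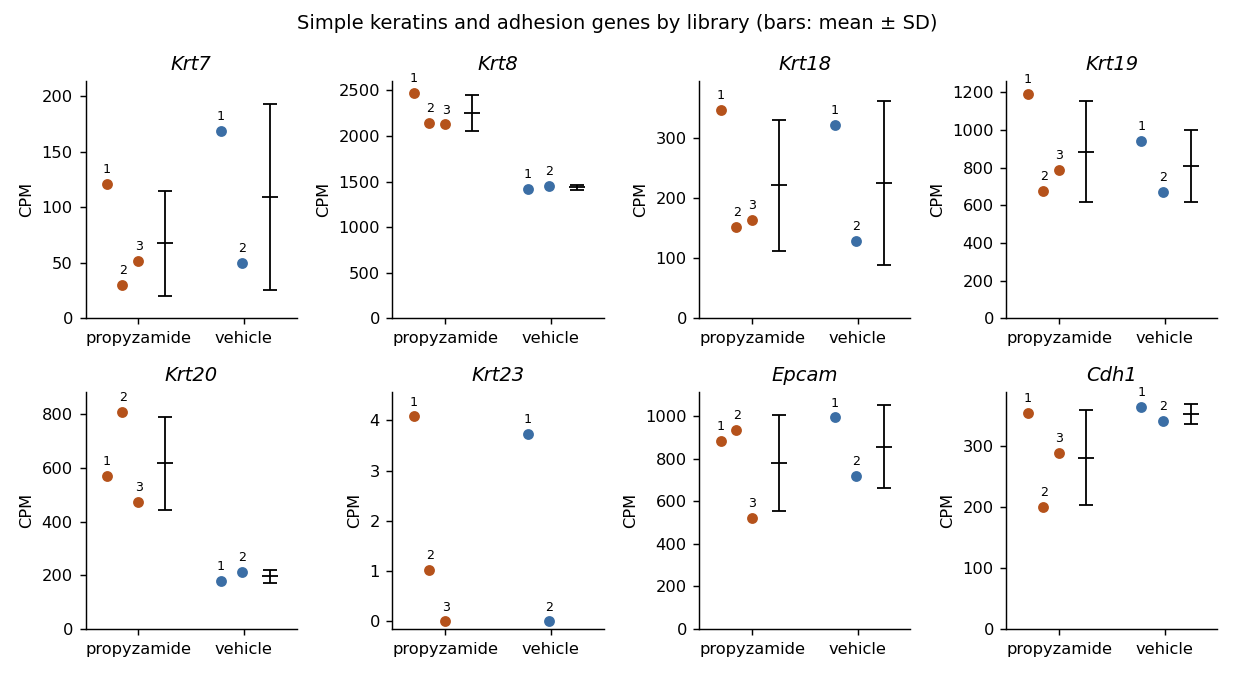
Level of each of the 8 genes in CPM (vertical axis) by library, propyzamide (orange, replicates 1 to 3) and vehicle (blue, replicates 1 and 2); the black bars give the mean ± SD and are left out for Krt23, which had libraries at 0. Krt20 and Krt8 are the panels in which every propyzamide point lies above both vehicle points.

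Krt8 supplies the type II partner of the simple keratins. It lies on chromosome 15 from 101996698 to 102004482 on the minus strand (GRCm38, GENCODE M21), and Krt18, its usual type I partner, lies 23697 bases away on the plus strand from 102028180 to 102032027, so the genes point away from each other. Krt8 stood at 2475, 2139.9 and 2126 CPM in propyzamide replicates 1 to 3, against 1419 and 1456 CPM in vehicle replicates 1 and 2. All 3 propyzamide libraries were above both vehicle libraries. The fitted difference was 0.64 ± 0.45 (log2, SE; edgeR adjusted p = 0.503), positive in all 16 alternative analyses, from 0.27 to 0.77, and past the threshold in 0 of them. In the authors' TPM, an abundance corrected for transcript length, Krt8 had 1470.3, 947 and 909.5 in propyzamide, against 1309 and 617 in vehicle, and there the groups overlapped.

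Per length, Krt8 was the 44th to 68th most abundant gene of each propyzamide library and the 57th and 69th in vehicle. A processed pseudogene, Krt8-ps, matches Krt8 at 98.6% over 941 bases and could share its reads. It took 0.990%, 0.449% and 0.501% of their joint count in propyzamide and 2.04% and 1.34% in vehicle.

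Krt18 stood at 347, 151 and 164 CPM in propyzamide, against 321 and 129 CPM in vehicle. Replicate 1 of each group was high and the other libraries were low, so the groups overlapped throughout, and the fitted difference was -0.03 ± 0.48 (log2, SE; edgeR adjusted p = 0.983). Without vehicle replicate 1 it was 0.76, without propyzamide replicate 2 it was 0.17 and without propyzamide replicate 3 it was 0.14, so no direction can be read. The largest propyzamide value was 2.29 times the smallest, and the largest vehicle value 2.50 times the smallest. Krt8, by comparison, spread by 1.16 times within propyzamide and 1.03 times within vehicle. The partners therefore varied by different amounts among the same libraries.

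Krt19 is a small type I keratin that lacks the tail domain of the others. It had 1190.2, 675 and 789 CPM in propyzamide and 941 and 671 CPM in vehicle. Again replicate 1 was the highest library of each group, and the fitted difference was 0.13 ± 0.43 (log2, SE; edgeR adjusted p = 0.913). It was -0.18 without propyzamide replicate 1 and -0.03 without vehicle replicate 2. Of its TPM, 28.4% to 40.7% in propyzamide and 26.9% and 47.3% in vehicle was assigned to a transcript of 823 bases with no annotated protein, and the rest to the coding transcript of 1576 bases.

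Krt7 is a type II keratin of ducts and of some glandular epithelia. It had 121, 29.8 and 51.7 CPM in propyzamide, against 168 and 49.9 CPM in vehicle, with replicate 1 high in both groups. The fitted difference was -0.69 ± 0.57 (log2, SE; edgeR adjusted p = 0.578), and without vehicle replicate 1 it was 0.42, so no direction can be read. The coding transcript of 4094 bases held 73.2%, 87.4% and 100% of the gene's TPM in propyzamide and 65.9% and 49.5% in vehicle. The remainder was assigned to a transcript with a retained intron and to a shorter non-coding one, which had at most 7 counts in any library.

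Krt23, a type I keratin, was close to the floor. It had 12, 2 and 0 counts in propyzamide and 9 and 0 counts in vehicle, where 3 counts correspond to 1.02 to 1.83 CPM in propyzamide and 1.24 and 1.70 CPM in vehicle. Its fitted difference of -0.08 ± 1.36 (log2, SE; edgeR adjusted p = 0.984) became 0.40 without propyzamide replicate 3, and a difference was not detectable at this depth. The 12 and 9 counts were again in replicate 1 of each group.

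Krt20 lies on chromosome 11 from 99428403 to 99438150 on the minus strand, 39823 bases from Krt23. It had 1677, 1572 and 776 counts in propyzamide and 430 and 376 in vehicle, or 569.9, 807 and 472 CPM in propyzamide, against 178 and 213 CPM in vehicle. Every propyzamide library exceeded both vehicle libraries. The fitted difference was 1.66 ± 0.42 (log2, SE), with an unadjusted p of 0.00173 and an edgeR adjusted p of 0.0561, just outside the threshold. In TPM the values were 345, 363 and 206 in propyzamide and 167 and 92.0 in vehicle. Krt20 was the 1 member whose groups did not overlap on that scale as well. The share of all genes without overlap in TPM was not computed, so this count has no background beside it.

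Over 16 alternative analyses the Krt20 difference lay between 1.25 and 1.85 on the log2 scale, and its adjusted p lay between 0.00115 and 0.404. Krt20 passed in 3 of them, each of which called more genes than the main fit. One was DESeq2 (DESeq2 adjusted p = 0.00115), which called 4.70% of all genes tested, against 1.90% in the main fit. With no filter on low counts, where the median of all genes was -1.14, Krt20 passed at an edgeR adjusted p of 0.00276. There 1327 of 37309 genes passed. With the replicate number as a block it passed as well (edgeR adjusted p = 0.00741), as did 639 of 12024 genes. In that fit propyzamide replicate 3 had no vehicle library in its block, so it did not inform the difference. The labels state no such pairing. With limma on log2(TPM + 1), where the median of all genes was -0.39, the Krt20 difference stood at 1.25 (limma adjusted p = 0.351).

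The promoters of Krt20, Krt8 and Krt18 are shown because Krt20 came closest to the threshold and Krt8 and Krt18 are the main filament pair of the same cells. The sequences are RefSeq's (GRCm38.p6), found for 6 of the 8 members, and end at the base before the RefSeq or the GENCODE start, whichever lies farther upstream. They cover chr11:99438154-99438403 (minus strand), chr15:102004483-102004592 (minus strand) and chr15:102027966-102028179 (plus strand), and capitals mark matches to any motif searched.
Krt20: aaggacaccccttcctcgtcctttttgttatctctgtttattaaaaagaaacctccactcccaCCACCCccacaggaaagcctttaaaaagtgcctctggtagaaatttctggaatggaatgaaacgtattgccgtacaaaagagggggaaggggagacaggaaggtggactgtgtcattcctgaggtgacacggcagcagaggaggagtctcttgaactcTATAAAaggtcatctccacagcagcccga
Krt8: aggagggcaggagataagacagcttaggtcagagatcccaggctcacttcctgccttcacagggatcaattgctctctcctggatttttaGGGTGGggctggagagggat
Krt18: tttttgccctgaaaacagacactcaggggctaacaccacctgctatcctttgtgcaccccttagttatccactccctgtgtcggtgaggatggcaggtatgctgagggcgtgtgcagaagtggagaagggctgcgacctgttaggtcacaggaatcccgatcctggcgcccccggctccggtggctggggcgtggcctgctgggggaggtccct

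Both strands were searched for the TATA box TATAAA, the CDX-type motif TTTATG, the AP-1 motif TGANTCA, the GC box GGGCGG and the CACC box CCACCC. The Krt20 window held a TATA box, whose first base is at -29 from the RefSeq start, as did 12.4% of 32851 promoter windows of the same length and place. It also held a CACC box at -187, found in 28.1% of them. It held 0 matches to the CDX-type motif, the AP-1 motif and the GC box, which 10.8%, 6.75% and 32.7% of windows hold. The Krt8 window held a CACC box on the other strand, found in 11.8% of windows of its length, and the Krt18 window held 0 matches. No match overlapped another. The GC content was 48.0% for Krt20, 53.6% for Krt8 and 60.7% for Krt18. A match here is a description of letters, and no binding was measured.

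Epcam stood at 882, 935 and 524 CPM in propyzamide, against 995 and 718 CPM in vehicle. The groups overlapped, with propyzamide replicate 3 the lowest library and vehicle replicate 1 the highest, and the fitted difference was -0.13 ± 0.43 (log2, SE; edgeR adjusted p = 0.913). Without propyzamide replicate 3 it was 0.08, and without vehicle replicate 1 it was 0.10. Cdh1 had 355, 200.2 and 289 CPM in propyzamide, against 364 and 342 CPM in vehicle. Propyzamide replicate 1 lay between the vehicle libraries, the other propyzamide libraries lay below them, and the fitted difference was -0.33 ± 0.38 (log2, SE; edgeR adjusted p = 0.705). In the whole tissue, fewer epithelial cells and less RNA per cell cannot be told apart.

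By TPM, Krt8 was the most abundant member in all 5 libraries and Krt23 the least. In propyzamide the means ran in the order Krt8 (1109 ± 314), Krt19 (709.6 ± 386), Epcam (440.4 ± 174), Krt20 (304.5 ± 86.1), Krt18 (162 ± 113), Cdh1 (59.1 ± 26.2), Krt7 (16.8 ± 15.3) and Krt23 (1.23 ± 1.65; SD, n = 3). In vehicle the order was Krt8 (963 ± 489), Krt19 (892.5 ± 576), Epcam (697 ± 497), Krt18 (249 ± 243), Krt20 (129.5 ± 53.0), Cdh1 (100.2 ± 56.0), Krt7 (46.95 ± 48.1) and Krt23 (2.21 ± 3.12; SD, n = 2). In vehicle every gene lay within the larger SD of its neighbour in this order, and in propyzamide the pairs Krt19 and Epcam, Epcam and Krt20, and Krt18 and Cdh1 did so. Krt20 exceeded Krt18 in all 3 propyzamide libraries and in vehicle replicate 2, so the vehicle order of these genes rests on replicate 1, and their values overlapped in both groups.

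Ratios within a library do not depend on how libraries are scaled. Krt20 was 0.234, 0.384 and 0.226 of Krt8 in propyzamide, against 0.128 and 0.149 in vehicle, by TPM. It was 0.577, 0.774 and 0.810 of Epcam in propyzamide, against 0.159 and 0.266 in vehicle. In both ratios the groups did not overlap, with geometric means 1.98-fold and 3.46-fold higher in propyzamide.

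Both gave p = 0.2 in the exact two-sided permutation test, the smallest p that 3 libraries against 2 allow, so 0.05 could not be reached. Adjusted over the 4 ratios tested, both p-values of this exact permutation test were 0.4. Leaving out 1 library at a time, the log2 difference was 0.74 to 1.12 for Krt20 to Krt8 and 1.42 to 2.16 for Krt20 to Epcam.

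The ratio of Krt8 to Krt18 was 5.04, 10.03 and 9.21 in propyzamide and 3.11 and 8.01 in vehicle, and the groups overlapped (exact permutation p = 0.4, two-sided; 0.533 adjusted). Krt8 exceeded Krt18 in all 5 libraries, least in replicate 1 of each group. The ratio of Epcam to Cdh1 was 6.79, 12.6 and 4.89 in propyzamide and 7.495 and 5.70 in vehicle (exact permutation p = 1, two-sided). The propyzamide libraries thus spanned the range of the vehicle libraries.

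**Figure D2:**
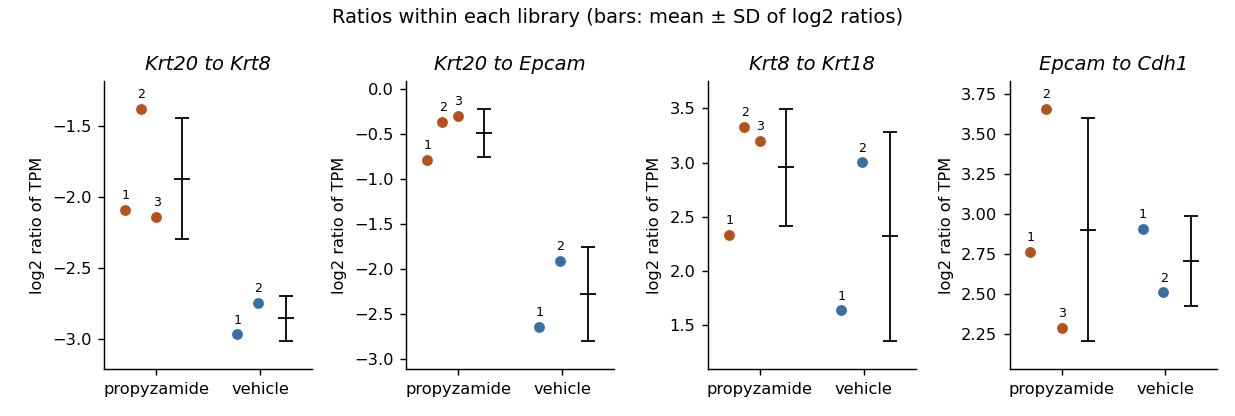
Log2 ratio of TPM within each library (vertical axis) for 4 gene pairs, propyzamide (orange) and vehicle (blue), with the mean ± SD as black bars and replicate numbers beside the points. Krt20 to Krt8 and Krt20 to Epcam do not overlap between the groups, and the other 2 ratios do.

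Among the 6 keratins, Krt20 made up 10.4%, 19.3% and 11.9% of the summed TPM in propyzamide and 5.09% and 7.16% in vehicle. The share of Krt19 was lower, at 35.01%, 24.9% and 29.2% in propyzamide, against 39.6% and 37.8% in vehicle. Neither of these shares overlapped between the groups, and shares of 1 total are not independent of each other. Krt8 held 44.6%, 50.4% and 52.6% of the pool in propyzamide and 39.9% and 48.04% in vehicle, which overlapped. Type II keratins, Krt7 and Krt8 together, made up 49.8% ± 3.85 in propyzamide (SD, n = 3) and 45.7% ± 4.74 in vehicle (SD, n = 2).

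**Figure D3:**
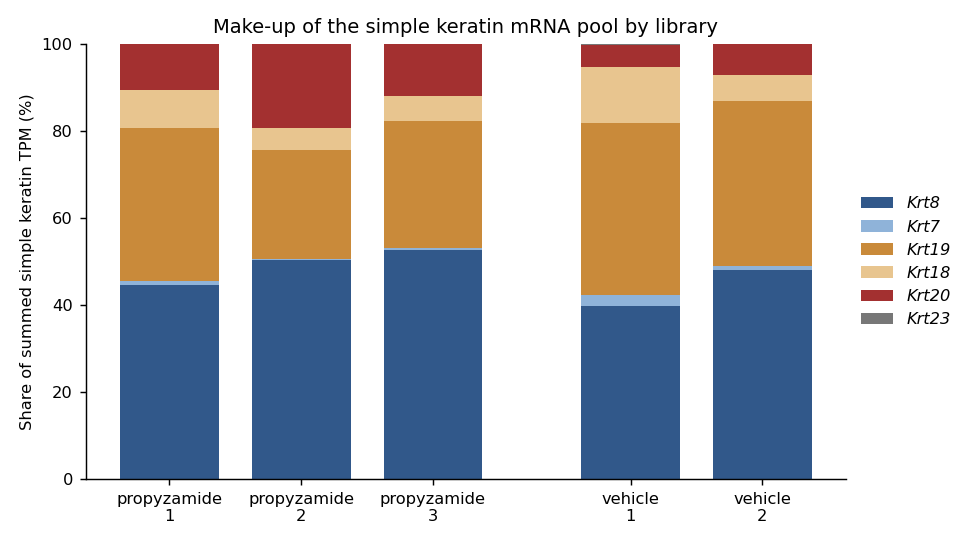
Share of each keratin in the summed TPM of the 6 simple keratins, in percent, as 1 stacked bar per library, with type II keratins in blue and type I in the other colours. The Krt20 segment (red) spans 10.4% to 19.3% in the propyzamide bars and 5.09% and 7.16% in the vehicle bars.

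Genes that build on keratin filaments and on E-cadherin showed no call either. Of the adherens junction and cadherin list, 0 of 13 tested members were called (3 at an unadjusted p under 0.05, 0 by DESeq2), with a median log2 fold change of 0.47. Its members summed to 1755, 1767 and 1500 CPM in propyzamide and 1230 and 1286 CPM in vehicle, without overlap. Of desmosome and keratin linker genes, which anchor keratins at the membrane, it was 0 of 11 (4 unadjusted, 0 by DESeq2; median 0.07). Of the partners and proteases of Epcam it was 0 of 11 (3 unadjusted, 0 by DESeq2; median -0.15). The median of all genes was -0.02, and 1.90% of them were called. An unadjusted p under 0.05 was reached by 18.2% of them in edgeR, and DESeq2 called 4.70%. Of single genes 37.5% did not overlap in CPM, and no such share was computed for sums over lists.

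Of 17 other keratins, mostly of stratified epithelia, Krt14 and Krt17 passed the filter on low counts, and edgeR called neither (1 at an unadjusted p under 0.05, 0 by DESeq2). Krt17, a keratin of stressed and wounded epithelium, had 7.48, 5.65 and 4.87 CPM in propyzamide and 1.24 and 1.13 CPM in vehicle (edgeR adjusted p = 0.198). Krt14, a basal cell keratin, had 7.48, 13.35 and 7.31 CPM in propyzamide and 14.9 and 2.27 CPM in vehicle. These 2 are named after their values were seen. Summed over the 17, other keratins were at 18.9 to 26.7 CPM in propyzamide and at 44.25 and 30.6 CPM in vehicle, all below the level of Krt20. Of the 17, 8, 10 and 11 had 0 counts in propyzamide replicates 1 to 3, and 0 and 3 in vehicle. The background seen in receptor genes differed with the groups too, and its part in these sums was not tested.

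Krt20 is known as a gene of surface colonocytes, and 3 of 8 other markers of these cells rose. None fell past the threshold and 5 did not pass (4 rose by DESeq2). Of all genes tested, 0.690% rose by edgeR, and DESeq2 called 4.70% in either direction. The median log2 fold change was 1.24, with 5 positive and 3 negative. The 3 negative ones, named here by that value, were Car4 (-0.57), Aqp8 (-0.13) and Ceacam20 (-0.60). Slc9a3, the sodium-proton exchanger of the brush border, changed by 5.19 ± 0.53 (log2, SE; edgeR adjusted p = 0.00204). Emp1, a membrane protein, changed by 4.48 ± 0.53 (edgeR adjusted p = 0.00292), and Guca2a, the guanylin precursor, by 3.59 ± 0.54 (edgeR adjusted p = 0.00759). With vehicle replicate 1 left out, Guca2a no longer passed (edgeR adjusted p = 0.0559). Earlier results of these data had named such genes, so the list is no independent evidence on Krt20.

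Among the 5 that did not pass, the chloride-bicarbonate exchanger Slc26a3 had 398, 689 and 286 CPM in propyzamide and 127 and 549.8 CPM in vehicle, and the carbonic anhydrase Car4 had 372.5, 657 and 189.9 CPM in propyzamide and 196 and 1016 CPM in vehicle. Both overlapped between the groups. The carbonic anhydrase Car1 had 2434, 2827 and 6098 CPM in propyzamide and 869 and 969 CPM in vehicle, without overlap (log2 fold change 2.04; edgeR adjusted p = 0.0845). These 3 were named after their values were seen. The surface list summed to 7080, 9656 and 9890 CPM in propyzamide and 1675 and 3281 CPM in vehicle, and in every propyzamide library Car1 and Guca2a made up most of the sum.

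Among the 8 markers of colon epithelium in general, 1 rose and 0 fell (2 rose by DESeq2), with a median of 0.08. The 1 that rose was Cdx2, an intestinal transcription factor, at 20.7, 40.55 and 14.0 CPM in propyzamide. It had 2.90 and 1.14 CPM in vehicle, from 7 and 2 counts with a floor of 3 (edgeR adjusted p = 0.0274). Its call was lost under 5 of 16 alternatives: limma on both log2 TPM scales, and without propyzamide replicate 2, vehicle replicate 1 or vehicle replicate 2 (adjusted p 0.0514 to 0.183). Among crypt and cycling markers, Lgr5, the stem cell receptor, had 4, 1 and 2 counts in propyzamide, around the floor of 3, and 37 and 17 in vehicle. In CPM it had 1.36, 0.513 and 1.22 in propyzamide and 15.3 and 9.65 in vehicle (edgeR adjusted p = 0.0417). That call was lost under 7 of the 15 alternatives that tested it. Among them were background subtraction, the length offset and the omission of propyzamide replicate 2 or 3 or of either vehicle library. The other 2 tested members of the list did not pass, Mki67 (log2 fold change -0.04) and Top2a (0.78). The list had a median of -0.04. It summed to 148, 44.1 and 90.7 CPM in propyzamide and 106 and 86.3 CPM in vehicle, which overlapped.

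Markers of other cell types are given beside Krt20. Smooth muscle markers summed to 5205, 7700 and 8724 CPM in propyzamide and 454.5 and 2987 CPM in vehicle, without overlap, though edgeR called 0 of 7 (7 at an unadjusted p under 0.05, 5 by DESeq2). Goblet cell markers summed to 6382, 666 and 4377 CPM in propyzamide and 8482 and 2976 CPM in vehicle, which overlapped. Of the 6, 0 were called (3 unadjusted, 0 by DESeq2). Their median log2 fold change was -1.32, with 5 negative and 1 positive. Clca1, named after its values were seen, had 214, 24.6 and 161 CPM in propyzamide and 1634 and 468 CPM in vehicle. Its groups did not overlap (log2 fold change -2.98, edgeR adjusted p = 0.0521). Adipocyte markers summed to 47.6, 103 and 303 CPM in propyzamide and 7.44 and 16.5 CPM in vehicle. Of the 5 listed, 3 were tested and 2 rose, Cidec (edgeR adjusted p = 0.0277) and Cfd (edgeR adjusted p = 0.0417). Each rose from at most 5 counts in the vehicle libraries. The untested members, Plin1 and Adipoq, failed the filter on low counts. Plin1 went the other way, with 1, 0 and 2 counts in propyzamide and 6 and 5 in vehicle. Adipoq had 3, 7 and 49 counts in propyzamide and 1 and 3 in vehicle. The Cidec call was lost under 7 of 16 alternatives (adjusted p 0.0505 to 0.141), among them the omission of propyzamide replicate 2 or 3 or of either vehicle library. The Cfd call was lost under 5 of 16 (adjusted p 0.0584 to 0.364), among them DESeq2 and the omission of propyzamide replicate 3 or of either vehicle library. Summed fibroblast, leukocyte and vessel markers overlapped between the groups, though single genes could lie apart. Cd3e and Cd79a, leukocyte genes that failed the filter, had 0 counts in every propyzamide library. In vehicle Cd3e had 6 and 2 counts and Cd79a 13 and 2. Both were named after their values were seen. Of the 3 leukocyte markers tested, 2 were positive and 1 negative. Of 5 fibroblast markers, 5 were positive, edgeR called 0 and DESeq2 called Dcn (DESeq2 adjusted p = 0.0343). Of mesothelial markers 6 were tested, 5 positive and 1 negative, and of squamous markers 2, both positive. edgeR called 0 of either list. DESeq2 called 1 of each, higher in propyzamide: Upk1b (DESeq2 adjusted p = 0.0170) and Sprr1a (DESeq2 adjusted p = 0.0161). The part of these cells in the Krt20 values was not tested.

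**Figure D4:**
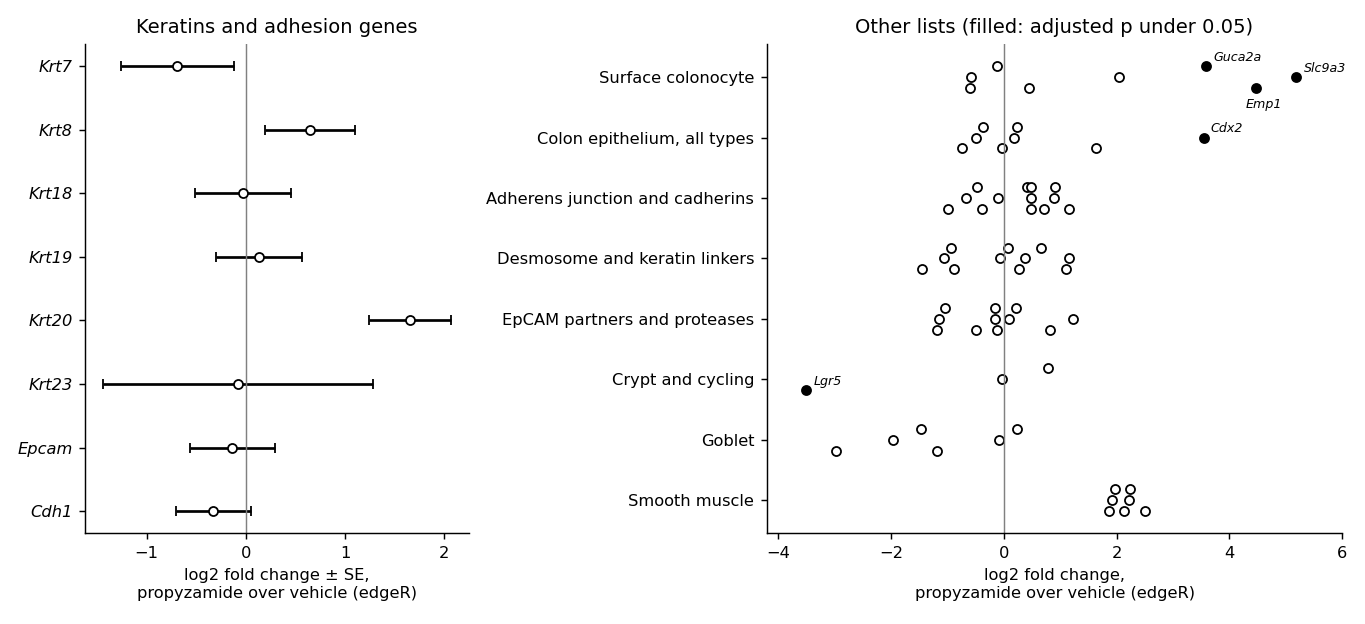
Left, the fitted log2 fold change of each of the 8 genes with its SE, propyzamide over vehicle; right, the same without SE for every tested member of 8 other lists (1 point per gene, filled where the edgeR adjusted p was under 0.05). Krt20, at 1.66, is the farthest from 0 of the 8, and the filled points are Guca2a, Emp1, Slc9a3, Cdx2 and Lgr5.

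To show which genes varied most like Krt8 and Krt20, log2(CPM + 1) was centred over the 5 libraries and the root mean square difference taken against 5535 well-expressed genes. The nearest to Krt8 were Uso1, Hypk, Ndufa12 and Mmgt1, at 0.0249 to 0.0717 log2 units. The nearest to Krt20 were Ybx1, Hacd1, Hbegf and Hnrnpa0, at 0.144 to 0.161 log2 units. Krt8 lay at 0.555 from Krt20, and Krt19, Epcam, Krt18, Cdh1 and Krt7 lay at 0.889, 0.918, 1.08, 1.09 and 1.51 from it. By this measure Krt8 was the member nearest to Krt20 over these 5 libraries, and Krt7 the farthest of those compared.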

How the data were processed

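Libraries followed the SMARTseq 2 protocol, per the labels' protocols. For 142647 transcripts, the authors deposited an estimated count, a TPM and lengths in each library, in RSEM's format per the file headers. The submitters' processing notes name RSEM, kallisto and GRCm38, with neither role nor version. Whether counting used strand is not given in the sources used here.

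Estimated counts and TPM were summed to 55471 genes, and counts were rounded. Symbols were found for 99.4% of gene identifiers and for all 8 members. Genes were tested with edgeR 4.0.16 in R 4.3.3 (filterByExpr, TMM, quasi-likelihood, Benjamini-Hochberg, threshold 0.05), with the group as the only term. The SE comes from the F statistic. Alternatives used DESeq2 1.42.0, limma 3.58.1 on log2(TPM + 1) and log2(TPM + 0.1), other scalings and filters, a length offset, background subtraction, a replicate block and each library left out. Near-identical copies were sought with BLAST 2.17.0 (at least 90% identity over 200 bases). Genes antisense to members, Gm671 at Krt7 and Gm36026 at Krt8, had at most 5 counts. In a simulation of 12024 genes, 200 of them changed, the test recovered 0% of those changed 2-fold, 42.9% at 4-fold and 68.3% at 8-fold, with 1.47% of calls false. Chi-square per degree of freedom between libraries was 12.4 to 39.3, so none was a duplicate.

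Members and lists were chosen with earlier results of these data known. The text names the 8 members, up to 4 called genes per list, and the 4 genes nearest in pattern to Krt8 and Krt20, besides genes said to be chosen by their values. Counting error alone sets the floor of 3 counts, and reads carry no molecular identifiers.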

Additional observations from a re-analysis of the deposited data

How the results depend on the processing

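Krt20 kept its positive log2 difference under all 16 alternatives, as did Krt8, and Cdh1 stayed negative under 16. Krt20 passed the threshold with no filter (1.78), with DESeq2 (1.67) and with the replicate block (1.80, edgeR adjusted p = 0.00741), so that the count of members called was 1 under each of these and 0 under the other 13, each library left out included. Leaving out 1 library, Krt20 lay between 1.40 and 1.85. The count of all genes called, 229, was 571 without scaling, 1327 with no filter, 148 at 10 CPM in 2 libraries, 565 with DESeq2, 490 with limma on log2(TPM + 1), 362 without rRNA-like and mitochondrial genes, 107 with background subtracted, 639 with the replicate block and 36 to 499 with 1 library left out. Of these calls 36.2% were higher in propyzamide, against 13.5% with limma on log2(TPM + 1), 46.02% with DESeq2, 50.7% with the block and 63.6% without vehicle replicate 2. Called list genes, 7 in all, were 15, 27, 17 and 22 without scaling, with no filter, with DESeq2 and with the block, and 2 to 15 with 1 library left out. The direction of members near 0 turned. Krt18 was positive with no filter (0.11), with the block (0.17) and without propyzamide replicate 2 (0.17), propyzamide replicate 3 (0.14) or vehicle replicate 1 (0.76). Krt19 was negative without scaling (-0.28), with limma at pseudocounts of 1 (-0.29) and 0.1 (-0.29), with background subtracted (-0.0083) and without propyzamide replicate 1 (-0.18) or vehicle replicate 2 (-0.031). Krt23 was positive with no filter (0.057), the block (0.73) and without propyzamide replicate 3 (0.40), and Epcam with the block (0.10) and without propyzamide replicate 3 (0.08) or vehicle replicate 1 (0.10). Krt7 was 0.42 without vehicle replicate 1. The ratio of Krt8 to Krt18 turned to -0.047 without vehicle replicate 1, and that of Epcam to Cdh1 to -0.18 without propyzamide replicate 2 and to -0.0028 without vehicle replicate 2. With 1 library left out, the differences ran from -1.47 to 0.42 for Krt7, -0.56 to 0.76 for Krt18, -0.18 to 0.38 for Krt19, -0.96 to 0.40 for Krt23 (2 of 5 omissions, since it failed the filter in the others) and -0.30 to 0.10 for Epcam, and the log2 ratio differences from -0.047 to 1.32 for Krt8 to Krt18 and -0.18 to 0.50 for Epcam to Cdh1. The causes were not tested. Replicate numbers join the groups in the titles but mark no shared animal or day that the labels state. In the block fit propyzamide replicate 3 had no vehicle library in its block and did not inform the differences. Deviations of same-numbered libraries correlated at 0.17 and 0.15 across genes. The deviations of the 2 vehicle libraries mirror each other, so these values cannot settle whether libraries were paired. Scaling moved the median of all genes from -0.02 to -0.14 with the upper quartile and to -0.38 without scaling. Where a vehicle library is left out, the remaining one is assumed to vary like the propyzamide libraries. Depth limits Krt23 only, at 12 counts or fewer.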
